A study of Mus musculus with 6 samples.

Results

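The genes described here are the classical cadherins and protocadherins of the embryonic mouse kidney, taken as every gene of the deposited table whose name is Cdh or Pcdh followed by a number, or Pcdha, Pcdhb or Pcdhg followed by more, with a value in every library. This gave 58 genes of 21553 with values; the Fat, Dachsous and Celsr cadherins were left out. The name rule also brings in 6 cadherins that are not classical (Cdh13, Cdh16, Cdh17, Cdh23, Cdh26 and Cdh29), so the set is wider than its title. Kidneys came from 3 embryos homozygous for a Fat4 mutation (Fat4-/-) and 3 wildtype embryos (Fat4+/+), all at E13.5, of the strain labelled C57BL6/6 at backcross generation N6, dissected from 1 pregnant female. Each library came from the kidney pair of a single embryo, taken with little of the ureter. The labels give no allele name, so the part of Fat4 that the mutation removes is not stated here, and no driver that would restrict it to a cell type is named.

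Cadherins are transmembrane proteins whose extracellular repeats bind the same or a related cadherin on the neighbouring cell in the presence of calcium. Classical cadherins of type I and type II bind catenins through their cytoplasmic tails and so join the junction to actin. Protocadherins have other tails; the clustered ones (alpha, beta and gamma) give single cells distinct surface identities, best known in neurons, while the delta protocadherins act in cell sorting and movement. In the developing kidney, mesenchyme, nephron progenitors, early nephrons and ureteric bud carry different cadherins, and the conversion of progenitors to epithelium comes with a change of cadherin. Fat4 is itself a giant member of the wider superfamily.

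Levels are given as cRPKM, the authors' corrected RPKM (reads scaled to transcript length and to the mapped reads of the library), which allows comparison between genes per length. Fold changes are mutant minus wildtype on the log2(cRPKM + 1) scale with the standard error (SE) of a limma fit over 12315 genes whose mean was at least 1 cRPKM, with Benjamini-Hochberg adjustment of the p-values over that whole set. This scale understates the change of low genes. Fat4 was at 7.82, 7.20 and 7.49 cRPKM in mutant embryos 1, 2 and 3 and at 16.74, 15.69 and 16.83 cRPKM in wildtype embryos 1, 2 and 3 (log2 fold change -1.03, SE 0.0476, adjusted p = 0.000155), which separates the libraries as labelled. A library held 17485 to 17541 genes above 0 in mutants and 17578 to 17705 in wildtypes. Read totals are unknown. The step size of low values gave relative depths of 1.00 to 1.04 in mutants and 0.906 to 1.00 in wildtypes, with wildtype embryo 1 set to 1 and values far from 1 not searched. These depths are rough: the best value for a library accounted for 17 to 23 of the 28 to 35 genes used. The 4 Y-linked genes examined summed to 69.6 cRPKM in mutant embryo 1 and 65.3 to 73.0 cRPKM in the wildtypes, against 0.0800 and 0.150 cRPKM in mutant embryos 2 and 3, so sex is uneven between the genotypes. All 9 nephron progenitor, 13 ureteric, 13 early nephron, 12 stromal and 8 endothelial markers with values were above 0 in some library.

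The cadherin level of the kidney was carried by a small number of genes. Cdh11, the cadherin of mesenchyme, stood first at 171 ± 1.47 cRPKM in mutants and 167 ± 8.91 cRPKM in wildtypes (SD, n = 3 each) and alone made up 32.9% to 34.6% of the summed level of the 58 genes in mutant libraries and 30.1% to 34.5% in wildtype libraries. The gamma protocadherin entry, Cdh2, Cdh5, Cdh16, Cdh3, Cdh1 and Pcdh18 followed, with means over the 6 libraries between 22.7 and 45.7 cRPKM. With Cdh11 these 8 genes held 81.5% to 82.7% of the sum in mutants and 81.4% to 82.2% in wildtypes. The summed level itself was 500.82, 499.88 and 516.80 cRPKM in mutants and 502.75, 503.11 and 520.71 cRPKM in wildtypes, so the groups overlapped in total while single members moved. By class, the 23 members that reached the minimum were 4 of 5 type I, 6 of 13 type II, 2 of 6 outside those types, 7 of 11 non-clustered protocadherins in 3 classes, and 4 of 23 entries of the clusters.

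**Figure D1:**
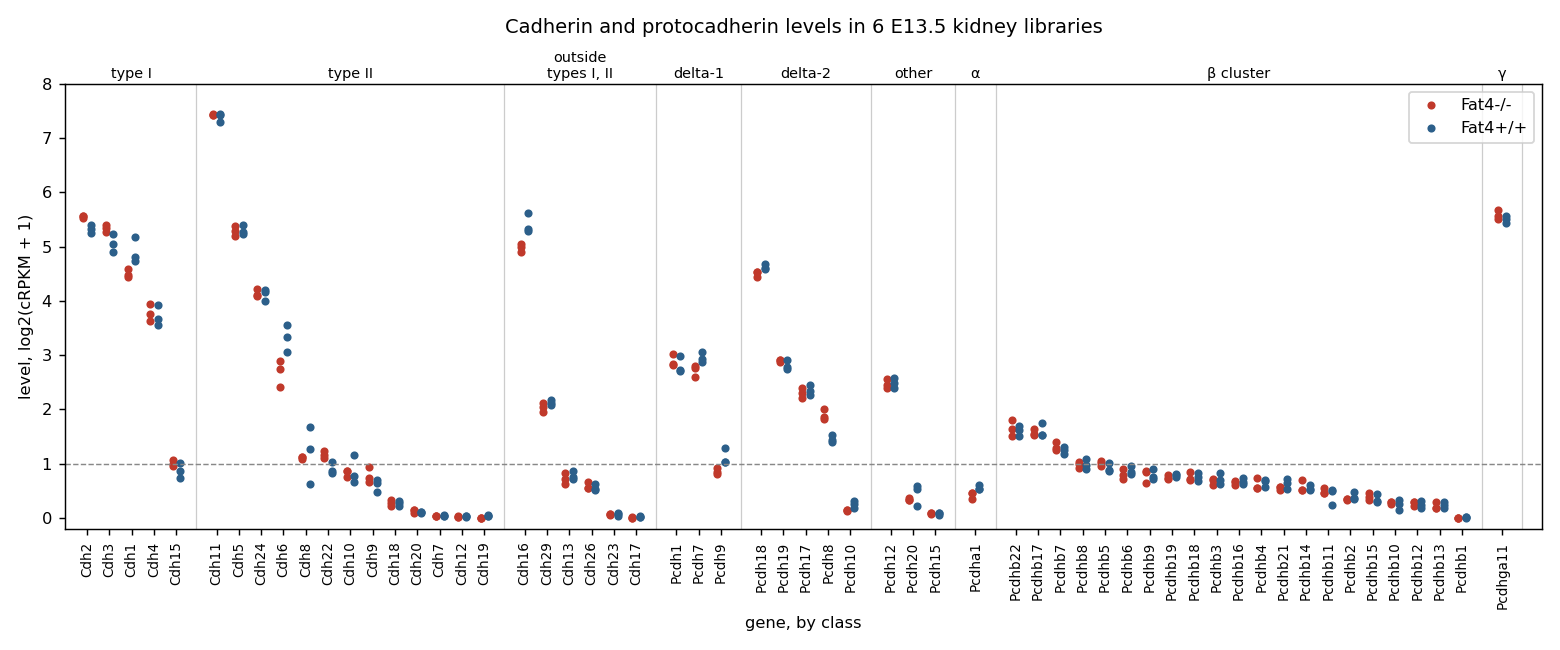
Level of each of the 58 genes as log2(cRPKM + 1) on the y axis, with genes on the x axis by class and by falling mean; each point is 1 library, red for the 3 Fat4-/- and blue for the 3 Fat4+/+ embryos, and the dashed line marks 1 cRPKM. Cdh11 is highest, and most beta cluster genes lie under the line.

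Comparing mutant with wildtype kidneys asks whether loss of Fat4 goes with a change in the other adhesion receptors of the tissue. Pcdh8 and Cdh2 rose in mutant kidneys, and no member fell at an adjusted p under 0.05. These 2 of 23 tested members (8.70%) stand against 1.43% of all tested genes called in either direction, 0.552% of them higher and 0.877% lower. At an unadjusted p under 0.05 there were 9 members (39.1%), 4 higher and 5 lower, against 13.0% of all tested genes (5.08% higher and 7.97% lower). The mutant and wildtype values of the same 9 did not overlap (39.1%, against 18.2% of all tested genes, 7.23% with higher and 11.0% with lower mutant values). The 4 on the higher side were Pcdh8, Cdh2, Cdh22 and Cdh3, and the 5 on the lower side Cdh16, Cdh6, Cdh1, Pcdh7 and Pcdh18. Of all 23, 12 had a fold change above 0 (52.2%, against 43.2% of all tested genes), and the median was 0.022 against -0.012 over all tested genes. In RNA of whole kidneys, fewer cells of a type and less RNA per cell cannot be told apart.

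**Figure D2:**
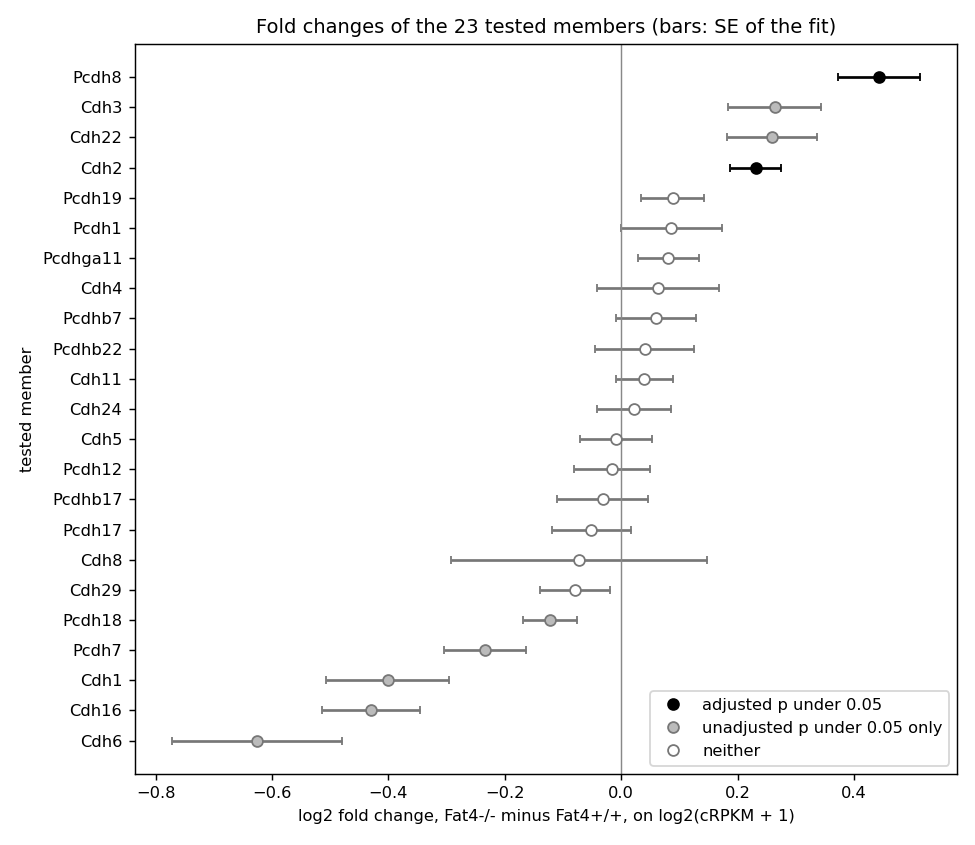
Log2 fold change of each of the 23 tested members on the x axis, Fat4-/- minus Fat4+/+ on the log2(cRPKM + 1) scale, with bars for the SE of the fit; black points have an adjusted p under 0.05, grey ones an unadjusted p under 0.05 only and white ones neither. Pcdh8 at 0.44 is at the top and Cdh6 at -0.63 at the bottom.

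Pcdh8 encodes a delta-2 protocadherin known from paraxial mesoderm and from neurons; in rat neurons its product has been linked to the internalisation of N-cadherin. It was at 2.55, 3.04 and 2.61 cRPKM in mutant embryos 1, 2 and 3 and at 1.70, 1.89 and 1.64 cRPKM in wildtype embryos 1, 2 and 3. Each mutant lay above every wildtype. The mean rose to 2.73 ± 0.267 cRPKM in mutants, against 1.74 ± 0.131 cRPKM in wildtypes (SD, n = 3 each), a ratio of 1.57 (log2 fold change 0.44, SE 0.0705, adjusted p = 0.0267 by limma). This was the highest fold change of the tested members. The call was kept without wildtype embryo 2 (adjusted p = 0.0412) and lost without any other single library (adjusted p 0.0531 to 0.0967), without a filter on low values (adjusted p = 0.0801) and with the Y-linked level as a covariate (adjusted p = 0.519), while the log2 fold change stayed between 0.37 and 0.62 over all 15 alternatives.

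The stretches upstream of Pcdh8 and of Cdh6 are shown because these are the tested members with the highest and the lowest fold change. Of the 58 genes, 22 had a promoter entry in the RefSeq table (GRCm38.p6), Pcdh8 and Cdh6 among them; Cdh1, Cdh2, Cdh3 and Cdh16 had none. Each run holds the 250 bases before the annotated start, 5′ to 3′ on the gene's strand, which is minus for both. Capitals mark TATAAA, searched on both strands. Pcdh8 lies at chr14:79771313-79771562 and Cdh6 at chr15:13173676-13173925.
Pcdh8: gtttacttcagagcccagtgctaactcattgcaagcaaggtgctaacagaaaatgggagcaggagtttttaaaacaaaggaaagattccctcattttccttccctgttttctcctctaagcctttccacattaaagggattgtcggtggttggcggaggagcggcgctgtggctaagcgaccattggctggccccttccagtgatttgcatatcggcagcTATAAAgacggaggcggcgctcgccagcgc
Cdh6: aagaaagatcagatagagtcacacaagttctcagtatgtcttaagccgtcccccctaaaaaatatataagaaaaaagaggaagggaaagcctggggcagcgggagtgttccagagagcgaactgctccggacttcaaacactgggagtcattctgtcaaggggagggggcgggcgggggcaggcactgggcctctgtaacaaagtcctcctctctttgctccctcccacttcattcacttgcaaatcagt
The TATAAA of Pcdh8 begins at position -30, counting the base before the start as -1, where a TATA box usually lies. TATAAA or its reverse complement occurred in 12.4% of the 32851 promoter entries of the same length and in 2 of 25 entries of the members. CAGGTG, the E-box bound by Snail and Zeb repressors, occurred on either strand in 17.2% of all entries and in 3 of 25 entries of the members (Cdh7 and Pcdh15), and its letters are in neither run. Both runs had a GC content of 51.2%, against a median of 52.4% over all entries.

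Cdh2 encodes N-cadherin, a type I classical cadherin of mesenchymal, neural and early nephron cells. It was at 46.39, 45.01 and 46.33 cRPKM in mutant embryos 1, 2 and 3 and at 38.80, 40.91 and 37.25 cRPKM in wildtype embryos 1, 2 and 3. The mutants lay within a narrow band, and the groups did not overlap. The mean rose to 45.9 ± 0.780 cRPKM in mutants, against 39.0 ± 1.84 cRPKM in wildtypes (SD, n = 3 each), a ratio of 1.18 (log2 fold change 0.23, SE 0.0440, adjusted p = 0.0487 by limma). The call sat at the threshold and was lost under 12 of 15 alternatives. These were leaving out any 1 of the 6 libraries (adjusted p 0.0563 to 0.166), the Y-linked covariate (0.519), no filter on low values (0.0910), quantile normalisation (0.0597), library weights (0.0526), no variance trend (0.0668) and the embryo number as a block (0.0541). The log2 fold change ran from 0.20 to 0.27 over the 15 alternatives.

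The lowest fold changes of the tested members were those of Cdh6, Cdh16 and Cdh1, none of them called. Cdh16 encodes Ksp-cadherin, the cadherin of kidney tubules and ureteric epithelium, with a tail too short for catenins. It was at 30.71, 28.86 and 31.95 cRPKM in mutant embryos 1, 2 and 3 and at 38.14, 38.82 and 47.95 cRPKM in wildtype embryos 1, 2 and 3. The groups did not overlap, and wildtype embryo 3 stood above the other wildtypes. Mutants averaged 30.5 ± 1.56 cRPKM and wildtypes 41.6 ± 5.48 cRPKM (SD, n = 3 each), a ratio of 0.733 (log2 fold change -0.43, SE 0.0845, adjusted p = 0.0543 by limma). Without wildtype embryo 3 the log2 fold change was -0.33 with an adjusted p of 0.0359, past the threshold.

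Cdh1 encodes E-cadherin, the type I cadherin of the ureteric bud and of nephron epithelium. It was at 20.81, 21.16 and 23.14 cRPKM in mutant embryos 1, 2 and 3 and at 25.66, 26.87 and 35.17 cRPKM in wildtype embryos 1, 2 and 3. Again the groups did not overlap and wildtype embryo 3 was highest. Mutants averaged 21.7 ± 1.26 cRPKM and wildtypes 29.2 ± 5.18 cRPKM (SD, n = 3 each; log2 fold change -0.40, SE 0.106, adjusted p = 0.129 by limma). Without wildtype embryo 3 the log2 fold change was -0.27 (adjusted p = 0.0790).

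Cdh6 encodes a type II cadherin (K-cadherin) of renal vesicles and proximal tubule precursors. It was at 5.69, 4.34 and 6.46 cRPKM in mutant embryos 1, 2 and 3 and at 9.06, 7.30 and 10.72 cRPKM in wildtype embryos 1, 2 and 3. Every mutant lay below every wildtype and embryo 3 was the highest of each genotype. Mutants averaged 5.50 ± 1.07 cRPKM and wildtypes 9.03 ± 1.71 cRPKM (SD, n = 3 each), a ratio of 0.609 (log2 fold change -0.63, SE 0.146, adjusted p = 0.0876 by limma). No single left-out library brought it past the threshold (adjusted p 0.0538 to 0.221).

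Cdh3, for P-cadherin, is a type I cadherin of epithelia that lies next to Cdh1 in the genome. It was at 37.36, 39.29 and 40.98 cRPKM in mutant embryos 1, 2 and 3 and at 28.86, 32.25 and 36.72 cRPKM in wildtype embryos 1, 2 and 3. The groups did not overlap, with wildtype embryo 3 close to mutant embryo 1 (log2 fold change 0.26, SE 0.0799, adjusted p = 0.192 by limma). Without wildtype embryo 3 it passed (log2 fold change 0.35, adjusted p = 0.0449). Cdh22, a type II cadherin best known in brain, was at 1.22, 1.35 and 1.14 cRPKM in mutants and 0.77, 0.81 and 1.03 cRPKM in wildtypes. Its groups did not overlap either (log2 fold change 0.26, SE 0.0772, adjusted p = 0.183 by limma); it lay just above the minimum for testing, and its log2 fold change was 0.47 with a pseudocount of 0.1 and 0.49 after quantile normalisation. Cdh4, for R-cadherin, a type I cadherin of early nephrons, was at 12.47, 11.40 and 14.39 cRPKM in mutants and 10.72, 11.70 and 14.14 cRPKM in wildtypes, with overlapping groups (log2 fold change 0.06, SE 0.105, adjusted p = 0.859 by limma). The direction for Cdh4 turned to -0.021 without mutant embryo 3 and to -0.018 without wildtype embryo 1.

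**Figure D3:**
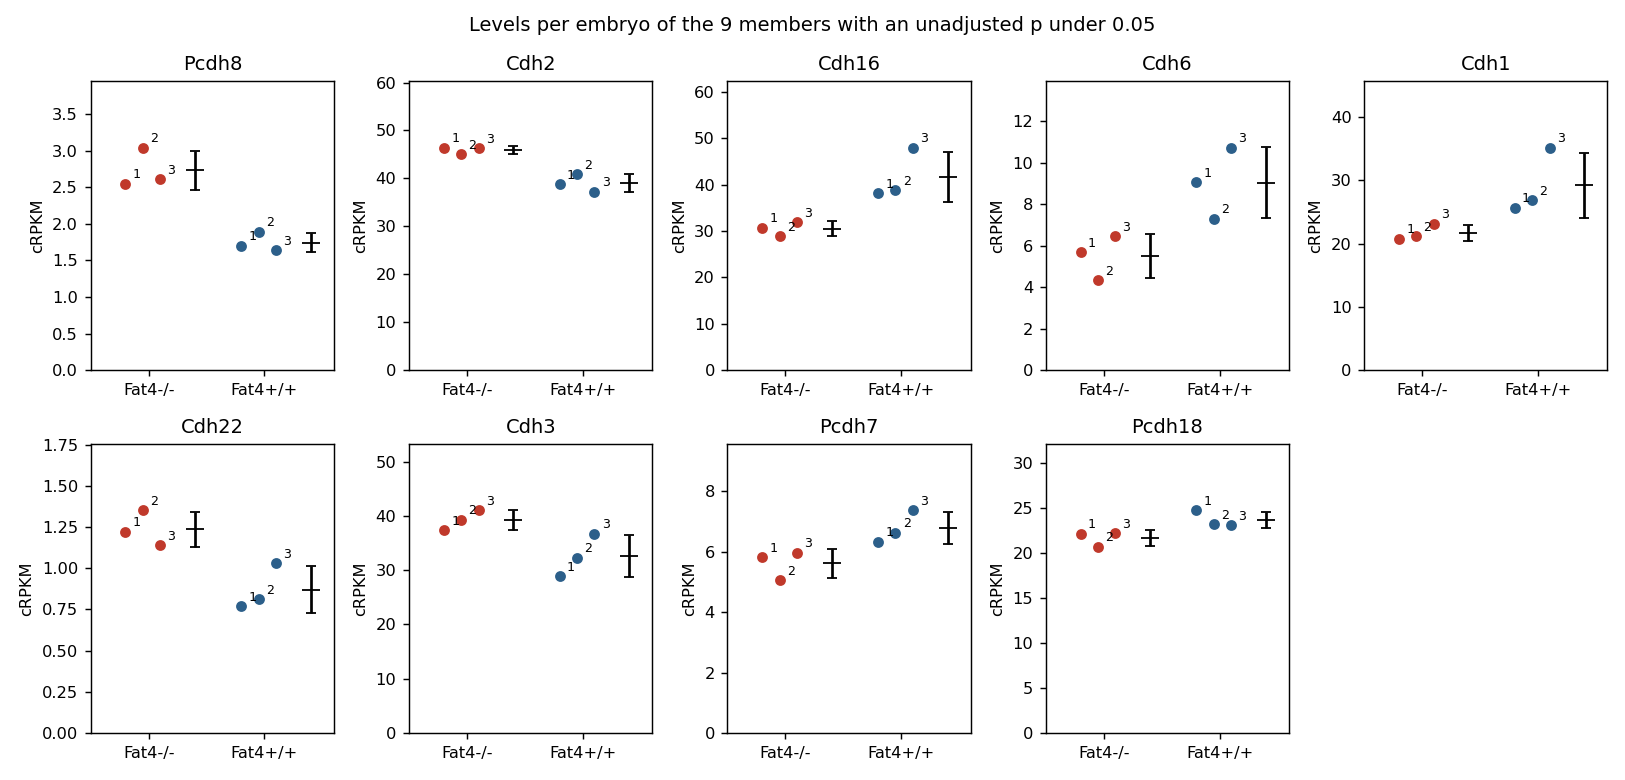
Level in cRPKM on the y axis of the 9 members with an unadjusted p under 0.05, Fat4-/- in red at the left and Fat4+/+ in blue at the right of each panel; points are single libraries with the embryo number and the black bar is the mean ± SD (n = 3 each). In all 9 panels the groups do not overlap, and wildtype embryo 3 is highest of its group for Cdh16, Cdh6, Cdh1, Cdh3, Cdh22 and Pcdh7.

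Ratios between members were formed within each library. They were chosen after the levels were seen and are given with no test. Cdh2 over Cdh1 was 2.23, 2.13 and 2.00 in mutant embryos 1, 2 and 3 and 1.51, 1.52 and 1.06 in wildtype embryos 1, 2 and 3. Cdh3 over Cdh1 was 1.80, 1.86 and 1.77 in mutants and 1.12, 1.20 and 1.04 in wildtypes, and here wildtype embryo 3 lay close to the other wildtypes. Cdh16 over Cdh1 overlapped, at 1.48, 1.36 and 1.38 in mutants and 1.49, 1.44 and 1.36 in wildtypes. Cdh6 over Cdh16 was 0.185, 0.150 and 0.202 in mutants and 0.238, 0.188 and 0.224 in wildtypes, also with overlap.

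**Figure D4:**
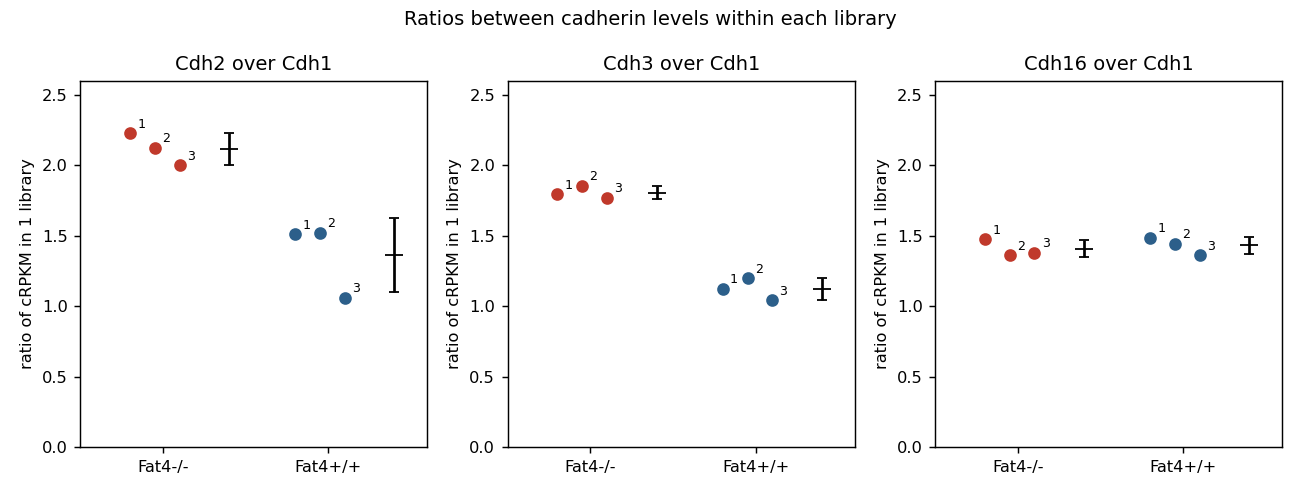
Ratio of cRPKM within 1 library on the y axis for Cdh2 over Cdh1, Cdh3 over Cdh1 and Cdh16 over Cdh1, Fat4-/- in red at the left and Fat4+/+ in blue at the right; points are libraries with the embryo number, the black bar the mean ± SD (n = 3 each). The first 2 ratios do not overlap between groups; Cdh16 over Cdh1 lies between 1.36 and 1.49 in both.

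Marker lists of kidney cell types are set beside some members here, and members did not always lie on the side of a list. The pairs of member and list were not among the planned comparisons, so a shared direction is no evidence of a link. Of the 13 tested ureteric epithelium genes none was called and 7 were lower at an unadjusted p under 0.05, against 7.97% of all tested genes. On their mean log2(cRPKM + 1) mutants were at 4.16 to 4.20, a difference of -0.13 from wildtypes. Wildtype embryos 1, 2 and 3 were at 4.21, 4.27 and 4.48, so much of this difference came from wildtype embryo 3. That embryo was also the highest wildtype for Cdh1, Cdh16 and Cdh6. Cdh1 relative to that mean differed by -0.27 and Cdh16 by -0.30, while Cdh3, on the opposite side from the list, differed by 0.40. Ret and Calb1 of the same list lay higher, with log2 fold changes of 0.15 and 0.12 (adjusted p 0.609 and 0.393 by limma). The 12 tested early nephron genes, 3 of them called lower (0.877% of all tested genes), were at 3.62 to 3.83 in mutants and 3.86 to 4.24 in wildtypes. Their mean differed by -0.34, and relative to it Cdh6 differed by -0.28 and Cdh16 by -0.089. Cdh1, also of nephron epithelium, had a log2 fold change of -0.40 beside this difference of -0.34. Cdh2, also of early nephron cells, lay on the opposite side from the list at 0.23. The early nephron list was uneven, with Hnf4a lowest at a log2 fold change of -1.21. Wnt4 and Fgf8 lay slightly higher at 0.05 and 0.03, and Pax8 was at -0.03 (adjusted p 0.870, 0.926 and 0.932 by limma). The 9 nephron progenitor genes, 3 of them called higher (0.552% of all tested genes), were at 5.48 to 5.62 in mutants and 5.18 to 5.29 in wildtypes. Their mean differed by 0.33, and relative to it Cdh2 differed by -0.097, Cdh3 by -0.064 and Pcdh8 by 0.12. The summed level of the ureteric list was 316.84 to 324.77 cRPKM in mutants. In wildtype embryos 1, 2 and 3 it was 322.02, 332.88 and 379.06 cRPKM, so the groups overlapped. That of the early nephron list was 285.84 to 322.38 cRPKM in mutants and 309.01 to 384.23 cRPKM in wildtypes, again highest in wildtype embryo 3. That of the progenitor list was 468.62 to 531.83 cRPKM in mutants and 372.92 to 415.17 cRPKM in wildtypes. The part of these marker levels in the cadherin values was not tested.

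**Figure D5:**
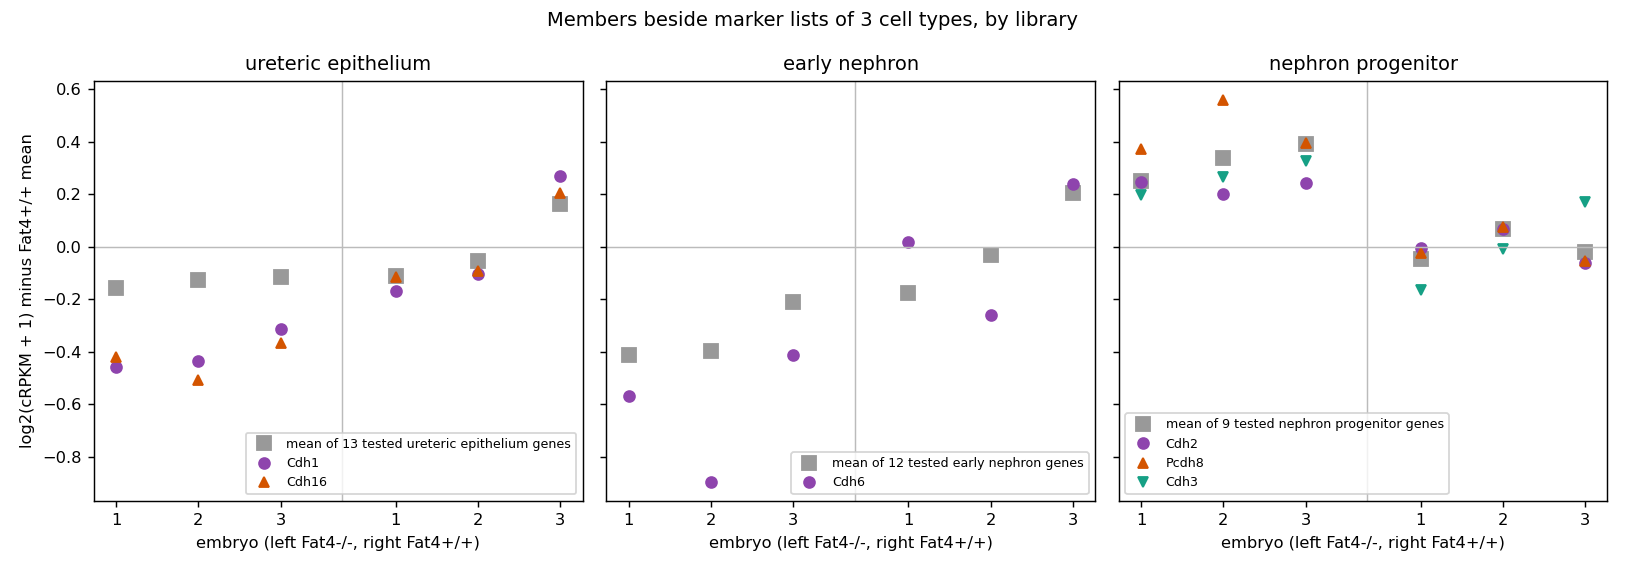
Deviation from the Fat4+/+ mean of log2(cRPKM + 1) on the y axis, by embryo on the x axis with Fat4-/- at the left and Fat4+/+ at the right of each panel; grey squares are the mean of a marker list and coloured points single cadherins. Cdh1 and Cdh16 lie below the ureteric list in the mutants (list difference -0.13), whereas Cdh2 and Cdh3 lie close to the progenitor list (list difference 0.33). Cdh1 and Cdh16, with log2 fold changes of -0.40 and -0.43, lie closer to the early nephron list (list difference -0.34), beside which they are not drawn.

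The remaining classical cadherins above the minimum did not pass. Cdh11, which marks uninduced mesenchyme and stroma, was at 171.62, 172.73 and 169.81 cRPKM in mutants and 173.22, 170.75 and 156.70 cRPKM in wildtypes (log2 fold change 0.04, SE 0.0488, adjusted p = 0.801 by limma), and the direction turned to -0.0050 without wildtype embryo 3. The 12 stromal markers lay at a mean log2 level of 4.65 to 4.78 in mutants and 4.85 to 5.18 in wildtypes, a difference of -0.28. Cdh11 relative to that mean differed by 0.32. The markers were not uniform: 2 were called lower (Pdgfra and Alx1), against 0.877% of all tested genes. Foxd1, Meis1 and Meis2 lay slightly higher, with log2 fold changes of 0.04, 0.02 and 0.09 (adjusted p 0.901, 0.949 and 0.473 by limma). Dcn and Lum stood highest in wildtype embryo 1, at 36.47 and 15.18 cRPKM, against 19.07 and 5.58 in wildtype embryo 2 and 13.93 and 6.16 in wildtype embryo 3. Cdh5, for VE-cadherin of endothelial junctions, was at 38.15, 35.64 and 40.54 cRPKM in mutants and 37.43, 36.34 and 41.28 cRPKM in wildtypes (log2 fold change -0.0087, SE 0.0622, adjusted p = 0.975 by limma). Endothelial markers summed to 143.92 to 149.76 cRPKM in mutants and 152.48 to 163.90 cRPKM in wildtypes. They differed among themselves: Cldn5, Tek and Emcn had log2 fold changes of -0.40, -0.34 and -0.18, with Cldn5 called (adjusted p = 0.0229 by limma). Tie1, Pecam1, Esam and Kdr were at -0.06, -0.03, -0.03 and -0.03, and Eng at 0.15 (adjusted p = 0.253 by limma). The sign for Cdh5 was positive with median-ratio library factors, with library weights and without mutant embryo 2 or wildtype embryo 3. Cdh24, a type II cadherin that binds catenins, was at 16.01, 16.15 and 17.69 cRPKM in mutants and 14.93, 16.80 and 17.35 cRPKM in wildtypes (log2 fold change 0.02, SE 0.0633, adjusted p = 0.925 by limma), with a sign that turned under 3 alternatives. Cdh8, a type II cadherin known from neurons, spread widely in wildtypes alone: it was at 1.19, 1.18 and 1.13 cRPKM in mutants and 2.20, 1.40 and 0.54 cRPKM in wildtypes (log2 fold change -0.07, SE 0.220, adjusted p = 0.933 by limma). Its direction turned to 0.17 without wildtype embryo 1, and without wildtype embryo 3 it was at -0.36.

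Among the other non-clustered protocadherins, Pcdh7 and Pcdh18 lay on the lower side without a call. Pcdh7, a delta-1 protocadherin, was at 5.82, 5.06 and 5.97 cRPKM in mutants and 6.34, 6.63 and 7.37 cRPKM in wildtypes, with no overlap (log2 fold change -0.23, SE 0.0713, adjusted p = 0.194 by limma). Pcdh18, a delta-2 protocadherin, was at 22.16, 20.68 and 22.21 cRPKM in mutants and 24.73, 23.23 and 23.08 cRPKM in wildtypes, close but with no overlap (log2 fold change -0.12, SE 0.0462, adjusted p = 0.305 by limma). Pcdh18 and Pcdh10 were the 2 members on chromosome 3, which also holds Fat4, at distances of 10.9 and 6.49 Mb between gene starts on GRCm38. Pcdh10 was too low to test, at 0.11, 0.09 and 0.11 cRPKM in mutants and 0.20, 0.14 and 0.24 cRPKM in wildtypes, and the groups did not overlap. Fit without a filter on low values it had a log2 fold change of -0.11 (unadjusted p = 0.0111, adjusted p = 0.231 by limma). Whether the chromosome around Fat4 differs in sequence between mutants and wildtypes was not tested.

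Of the other delta protocadherins none was called. Pcdh19, the X-linked delta-2 member that can pair with N-cadherin in zebrafish, was at 6.54, 6.35 and 6.49 cRPKM in mutants and 6.51, 5.83 and 5.73 cRPKM in wildtypes (log2 fold change 0.09, SE 0.0539, adjusted p = 0.554 by limma). Wildtype embryo 1 reached the mutant levels, so the groups overlapped. Pcdh1, a delta-1 member known from airway epithelium, was at 6.10, 6.07 and 7.07 cRPKM in mutants and 5.50, 5.59 and 6.91 cRPKM in wildtypes (adjusted p = 0.749 by limma). Pcdh17 averaged 3.93 ± 0.295 cRPKM in mutants and 4.11 ± 0.342 cRPKM in wildtypes (SD, n = 3 each; adjusted p = 0.817 by limma), and Pcdh12, a protocadherin of endothelium, 4.54 ± 0.323 and 4.61 ± 0.340 cRPKM (SD, n = 3 each; adjusted p = 0.950 by limma). For Pcdh17 and Pcdh12 the sign was not stable over the alternatives. Pcdh9, the last delta-1 member, missed the minimum at 0.79, 0.75 and 0.88 cRPKM in mutants and 1.43, 1.03 and 1.05 cRPKM in wildtypes, with no overlap. Its ratio of 0.689 was lower than that of Pcdh7 (0.828) or Pcdh18 (0.916), with a log2 fold change of -0.26 in the fit without a filter (adjusted p = 0.251 by limma).

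The clustered protocadherins lie in 3 neighbouring arrays on chromosome 18, where alpha and gamma genes splice a variable exon of their own to constant exons they share, and each beta gene is a single exon. The table holds 1 alpha entry, 21 beta entries and 1 gamma entry. The entry named Pcdhga11 carries an identifier that GENCODE M21 gives to Pcdhgc4, and on the same strand its annotated span overlaps 21 other protocadherin genes; the entry named Pcdha1 carries that of Pcdha11 and overlaps 13. The sources used here do not say how reads of the shared exons were assigned, so these entries cannot be read as single isoforms. The gamma entry was at 44.61, 49.84 and 46.47 cRPKM in mutants and 42.40, 44.38 and 46.21 cRPKM in wildtypes, with overlap (log2 fold change 0.08, SE 0.0523, adjusted p = 0.582 by limma). The alpha entry was too low to test, at 0.38, 0.37 and 0.28 cRPKM in mutants and 0.44, 0.53 and 0.45 cRPKM in wildtypes, with no overlap (unadjusted p = 0.0141, adjusted p = 0.255 in the fit without a filter).

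The 21 beta genes were low but broadly present. Their sum was 14.24, 15.00 and 14.68 cRPKM in mutants and 16.47, 13.94 and 13.52 cRPKM in wildtypes, with wildtype embryo 1 highest and the groups overlapping. Pcdhb22 averaged 2.15 ± 0.312 cRPKM in mutants and 2.06 ± 0.195 cRPKM in wildtypes, Pcdhb17 1.98 ± 0.124 and 2.05 ± 0.286 cRPKM, and Pcdhb7 1.47 ± 0.131 and 1.37 ± 0.116 cRPKM (SD, n = 3 each). These 3 were the beta genes that could be tested, and none passed (adjusted p 0.786 to 0.910 by limma). The other 18 had means over the 6 libraries of 0.0033 to 0.978 cRPKM, with the mutant mean lower for 11 and higher for 7. Pcdhb1, the first of the array, was listed at 0 in every mutant and at 0.00, 0.01 and 0.01 cRPKM in wildtypes. Near-identical beta genes can share reads, so their single values are uncertain.

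Among the 35 members under the minimum, 21 had a lower mutant mean, 13 a higher one and 1 an equal one, against a lower mutant mean for 59.3% of the 6420 genes of the table that were too low and above 0 somewhere. In the fit without a filter 4 of the 35 had an unadjusted p under 0.05 (Pcdh10, Pcdh9, Pcdha1 and Cdh19; 11.4%), which is near the 12.1% of all 18735 genes in that fit, and none was called (lowest adjusted p = 0.231 by limma). Cdh19, known from Schwann cell precursors, was listed at 0 in all 3 mutants and at 0.04, 0.02 and 0.02 cRPKM in wildtypes. The 10 genes of the nerve and neural crest list summed to 28.31 to 30.79 cRPKM in mutants and 25.31 to 37.21 cRPKM in wildtypes. Cdh15, for M-cadherin of skeletal muscle, was at 0.95, 1.10 and 1.00 cRPKM in mutants and 0.82, 1.01 and 0.67 cRPKM in wildtypes, against summed skeletal muscle markers of 1.68 to 3.99 cRPKM in mutants and 3.28 to 9.93 cRPKM in wildtypes. Cdh10 and Cdh9, of neurons, averaged 0.773 and 0.720 cRPKM in mutants and 0.833 and 0.533 cRPKM in wildtypes. Cdh13, the cadherin held by a lipid anchor in place of a tail, averaged 0.650 ± 0.115 cRPKM in mutants and 0.720 ± 0.0964 cRPKM in wildtypes (SD, n = 3 each). Cdh17, the liver and intestine cadherin, and the hair cell tip link genes Cdh23 and Pcdh15 had means over the 6 libraries of 0.0083, 0.048 and 0.057 cRPKM. Pcdh20 averaged 0.263 ± 0.0231 cRPKM in mutants and 0.370 ± 0.184 cRPKM in wildtypes (SD, n = 3 each).

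The entry named Cdh29 averaged 3.12 ± 0.245 cRPKM in mutants and 3.35 ± 0.135 cRPKM in wildtypes (SD, n = 3 each; log2 fold change -0.08, adjusted p = 0.653 by limma). GENCODE M21 names its identifier Gm20661 and places it on chromosome 9 over Cdhr4 and Uba7 on the same strand, so its reads and theirs cannot be told apart here. Cdhr4, a cadherin-related gene, was itself at 4.01, 4.32 and 4.75 cRPKM in mutants and 4.42, 4.80 and 4.05 cRPKM in wildtypes, with overlapping groups.

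By position, 26 of the 58 members lie on chromosome 18 (23 of them cluster entries) and 8 on chromosome 8. On chromosome 8 the order on GRCm38 is Cdh8, Cdh11, Cdh5, Cdh16, Cdh3, Cdh1, Cdh13 and Cdh15. Cdh3 ends at 106557297 and Cdh1 starts at 106603351, 46.1 kb further on the same strand, yet their log2 fold changes were 0.26 and -0.40. Cdh5 ends 457 kb before Cdh16, with log2 fold changes of -0.0087 and -0.43. None of these 4 genes was called. Cdh3 and Cdh1 lay on opposite sides, and the sign for Cdh5 was not stable.

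In the lists of cadherin partners 1 gene was called higher and 1 lower, against 0.552% and 0.877% of all tested genes. Counts this small give no result about the lists. Of 20 tested catenins and junction linkers 1 rose, Ajap1, a membrane protein of adherens junctions, at 5.24, 5.72 and 5.59 cRPKM in mutants and 4.17, 4.62 and 4.27 cRPKM in wildtypes (log2 fold change 0.28, SE 0.0544, adjusted p = 0.04996 by limma). The Ajap1 call was lost under 11 of 15 alternatives: leaving out any 1 of the 6 libraries (adjusted p 0.0591 to 0.176), no filter (0.118), a minimum mean of 0.5 cRPKM (0.0521), quantile normalisation (0.0503), library weights (0.0707) and the Y-linked covariate (0.687). The median log2 fold change of the list was -0.018, against -0.012 over all tested genes. Of 13 tested genes on a list drawn up for E-cadherin transcription 1 fell, Zeb2, a zinc finger repressor of Cdh1. Zeb2 was at 14.58, 13.00 and 13.35 cRPKM in mutants and 19.29, 17.41 and 18.68 cRPKM in wildtypes (log2 fold change -0.41, SE 0.0559, adjusted p = 0.0191 by limma). The call for Zeb2 did not survive leaving out mutant embryo 2 (adjusted p = 0.0685) or mutant embryo 3 (0.0796), nor the Y-linked covariate (0.418) or the fit without a filter (0.0714). Snai2, another repressor of Cdh1, was at 28.70, 27.44 and 26.49 cRPKM in mutants and 31.75, 34.54 and 32.20 cRPKM in wildtypes (log2 fold change -0.24, adjusted p = 0.0536 by limma). Esrp2, a splicing regulator of epithelial cells, was at 1.80, 1.80 and 2.06 cRPKM in mutants and 2.40, 2.42 and 2.91 cRPKM in wildtypes (log2 fold change -0.31, adjusted p = 0.0979 by limma). With Twist2 (log2 fold change -0.30, adjusted p = 0.377 by limma), 4 of the 13 were on the lower side at an unadjusted p under 0.05, against 7.97% of all tested genes. The list had a median of -0.10. Zeb1, Tcf3 and Tcf4 lay higher at 0.08, 0.09 and 0.07 (adjusted p 0.630, 0.488 and 0.537 by limma). Snai1, Esrp1, Ovol1, Grhl2, Ovol2 and Twist1 lay lower without reaching that level. The list mixes repressors of Cdh1 with genes of epithelial cells such as Esrp2, so its count and median do not describe repressors alone. Zeb2 and Snai2 are also genes of stroma and mesenchyme. The mean of the stromal markers lay lower in mutants as given above, though not every marker did. The part of that in the Zeb2 and Snai2 values was not tested.

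No desmosomal gene was called. All 3 tested (Dsc2, Dsp and Dsg2) had an unadjusted p under 0.05 on the lower side, against 7.97% of all tested genes, with a median log2 fold change of -0.23; Dsc2, a desmosomal cadherin, was at 2.80, 2.78 and 2.81 cRPKM in mutants and 3.35, 3.31 and 3.72 cRPKM in wildtypes (log2 fold change -0.23, SE 0.0553, adjusted p = 0.0940 by limma). Of 14 tested genes for promoter choice in the protocadherin clusters, among them Ctcf and cohesin, none was called or had an unadjusted p under 0.05 (median -0.029). The lowest p among them were those of Nipbl, a cohesin loader, at 20.1 ± 1.51 cRPKM in mutants and 21.8 ± 1.91 cRPKM in wildtypes, and of the cohesin subunit gene Stag1, at 26.7 ± 0.572 and 27.8 ± 0.719 cRPKM (SD, n = 3 each; adjusted p 0.606 and 0.616 by limma). Of 13 tested signalling partners of protocadherins none was called (median -0.0070). An unadjusted p under 0.05 was found for 2, Wasf1 and Abi2, both higher, against 5.08% of all tested genes higher and 13.0% in either direction. Both belong to the WAVE complex, but its other listed genes Wasf2, Nckap1, Abi1, Cyfip1 and Cyfip2 did not reach that level, with log2 fold changes of 0.08, -0.05, -0.05, -0.03 and -0.02. Of 10 tested cadherin repeat genes outside the set none was called. The lowest p among them was for Cdhr1, known from photoreceptors, at 5.29, 5.61 and 4.99 cRPKM in mutants and 3.74, 3.95 and 4.42 cRPKM in wildtypes (log2 fold change 0.32, SE 0.0652, adjusted p = 0.0599 by limma).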

How the data were processed

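RNA of 6 kidney libraries was sequenced, 1 per embryo. The authors deposited 1 table with a column per library in RPKM, in a corrected form named cRPKM, and the correction is not described in the sources used here. Reads were trimmed, per the file headers; Bowtie and the mm9 build are named, per the submitters' processing notes, with versions not stated. The table has 22667 genes, 1114 of them without values. All 6 columns were matched to samples by the header text in the sample descriptions.

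The values are not counts, so log2(cRPKM + 1) was fitted, for the 12315 genes averaging 1 cRPKM or more, with limma 3.58.1 in R 4.3.3 (all 6 libraries, genotype alone in the model, trended eBayes, tests 2-sided), with Benjamini-Hochberg adjustment over all of them and calls at 0.05. The script was tested on simulated data. An exact permutation test of 3 embryos against 3 cannot go below p = 0.1. Embryos are separate animals of 1 litter. Depth is unknown, so no counting intervals are given.

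Named members were all tested ones, the highest of each class, those near Fat4, and called or lowest-p genes of the partner lists; further low members were named after their values were seen. The members and lists were chosen with earlier results of these data known. Positions are from GENCODE M21 (GRCm38), joined by identifier, and differ from mm9. Alternatives covered the filter, pseudocount, scaling, library weights, a Y-linked covariate, the embryo number, the variance trend and leaving out each library.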

Additional observations from a re-analysis of the deposited data

How the results depend on the processing

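Over 15 alternatives the 9 members with an unadjusted p under 0.05 kept their sign in all 134 results that could be fitted; Cdh22 was under the minimum without mutant embryo 2. Of 344 results for tested members 295 kept their sign and side of the threshold. Members called higher (2) and lower (0) became 0 and 0 without a filter on low values and with the Y-linked covariate; 1 and 0 with quantile normalisation and without the variance trend; 1 and 1 with library weights (Cdh16 lower, adjusted p = 0.0424). Leaving out 1 library gave 0 to 1 higher and 0 to 1 lower. The cause of these differences was not tested.

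All genes called higher (68) and lower (108) became 10 and 22 without a filter and 1 and 1 with the covariate; leaving out 1 library gave 7 to 53 higher and 17 to 87 lower. Partner genes called higher (1) and lower (1) became 0 and 0 without a filter and with the covariate, 0 higher with a minimum mean of 0.5 cRPKM, and 2 lower with library weights; leaving out 1 library gave 0 to 1 higher and 0 to 1 lower.

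The labels do not state that the embryo numbers pair the samples, though the column headers number same-numbered embryos consecutively. Deviations of same-numbered embryos correlated at 0.0985, 0.205 and 0.277 over genes. However, mutant embryo 1 correlated best with wildtype embryo 3 (0.106) and mutant embryo 2 with wildtype embryo 1 (0.227). With the number as a replicate block, 109 genes were called higher and 164 lower, and of the members 2 higher (Pcdh8 and Cdh3) and 3 lower (Cdh1, Cdh6 and Cdh16), while Cdh2 was not called (adjusted p = 0.0541).

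Small fold changes turned sign. With library weights Cdh5 was at 0.041, Pcdh12 at 0.030, Pcdh17 at 0.0012 and Pcdhb22 at -0.00030; with median-ratio factors Cdh5 was at 0.0026; with quantile normalisation Pcdh12 was at 0.023 and Pcdhb17 at 0.025; with the covariate Cdh24 was at -0.029, Pcdhb22 at -0.092 and Nipbl at 0.0080. Leaving out 1 library gave ranges of -0.0050 to 0.067 for Cdh11, -0.038 to 0.064 for Cdh24, -0.021 to 0.17 for Cdh4, -0.053 to 0.044 for Cdh5, -0.36 to 0.17 for Cdh8, -0.062 to 0.026 for Pcdh12, -0.095 to 0.00059 for Pcdh17, -0.074 to 0.044 for Pcdhb17 and -0.034 to 0.11 for Pcdhb22. Unknown depth limits the low members most.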
